A study of Mus musculus with 6 samples.

Results

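Pre-mRNA splicing factor genes were examined in the E13.5 mouse lens, where 3 libraries of a Prox1 conditional knockout (cKO) were compared with 3 wild type libraries. The genes were chosen by name: the serine/arginine-rich proteins (Srsf), the SF3A and SF3B subunits (Sf3a, Sf3b), the numbered pre-mRNA processing factors (Prpf) and the heterogeneous nuclear ribonucleoproteins (Hnrnp), leaving out pseudogene names and Hnrnpu, whose count and CPM could not be paired in the files. This gave 52 genes of 41128 features: 11 SR proteins, 9 SF3A and SF3B subunits, 13 Prpf factors and 19 hnRNP proteins. Knockout lenses were Prox1 f/f and carried MLR10Cre+, a transgene whose crystallin promoter drives Cre recombinase in lens cells. Both genotypes are labelled C57Bl/6, each library is a pool of 30 lenses, and no group carried the floxed alleles or the transgene alone, so what either does by itself and the loss of Prox1 cannot be told apart.

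Splicing removes introns in a large particle, the spliceosome, that assembles anew on each transcript. SR proteins bind exons and recruit the machinery, and hnRNP proteins coat the transcript and often oppose them. The SF3A and SF3B subunits belong to the U2 particle, which holds the branch point of the intron, while Prpf proteins are mostly parts of the particles that join later and carry out the reaction. Many SR and hnRNP genes limit their own level by splicing their transcript into a form that is degraded. Lens fibre cells make very large amounts of a few crystallin mRNAs and later lose their nuclei.

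The comparison asks how RNA levels differ between knockout and wild type lenses. The libraries held between 9082219 and 28391662 counts. Prox1 itself fell by 0.70 on the log2 scale (edgeR adjusted p 0.0074), a call lost with library totals in place of TMM factors (0.0532). It had 651, 728 and 707 TMM-scaled CPM (counts relative to the library total, scaled between libraries by the trimmed mean of M values) in knockout libraries 1, 2 and 3 and 922, 1215 and 1246 in the wild type libraries. Crystallin genes took 2.83% to 3.14% of the counts in the knockout and 13.2% to 22.7% in the wild type, and the 6 lens fibre markers found in the files, crystallins among them, were all lower in the knockout. Of 7 neural retina markers 4 rose, and they summed to between 1499 and 2166 CPM in the knockout against 667 to 934 CPM in wild type lenses. All 5 pigment cell markers rose and summed to between 244 and 690 CPM and between 51.1 and 160 CPM. All 4 surface ectoderm markers rose and summed to between 18 and 94.8 CPM and between 3.21 and 13.2 CPM. Periocular mesenchyme markers were highest in knockout library 3, with 2427 CPM against 736 and 475 in knockout libraries 1 and 2, and Foxc2 was at 0 in every library. Of 7 proliferation genes 4 rose, and they summed to between 1763 and 1886 CPM and between 1259 and 1549 CPM. The part of these cells in the values below was not tested, and in pooled lenses fewer cells of a type and less RNA per cell cannot be told apart.

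Splicing factor genes differed little between knockout and wild type lenses. All 52 passed the filter on low counts, and 5 rose by the quasi-likelihood test of edgeR (adjusted p below 0.05 over all features tested): Hnrnpa0, Prpf4b, Hnrnpd, Hnrnpa1 and Hnrnpll. None fell by edgeR, DESeq2 or limma-voom. At an unadjusted edgeR p below 0.05, 9 members were higher and 0 lower. Over all 14271 features tested, 3279 were higher and 3185 lower at that limit, 45.3% in either direction. The 5 are 9.62% of the members. Of the 14271 features tested 32.6% were called, 15.9% higher and 16.8% lower. The median log2 change of the members was 0.05 and that of all features 0.04, while the median size of a change, whatever its sign, was 0.09 in the members and 0.34 over all features. Log2 changes of the members ran from -0.27 for Sf3b5 to 0.45 for Srsf12. No member was called with a change of at least 2-fold, which was seen in 11.0% of all features.

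For the 47 members that were not called, the intervals limit how large a change could have been missed if the TMM scaling holds. They leave out the choice of scaling. With library totals in its place the median log2 change was 0.40 in the members and 0.39 over all features, and 24 members were called. The 95% interval of the log2 change lay within 1.5-fold in either direction for 48 of 52 members, a share of 92.3%, against 36.2% of all features tested. Those that reached past it were Hnrnpa0 (0.09 to 0.60), Prpf40b (0.00 to 0.69), Sf3b5 (-0.59 to 0.05) and Srsf12 (-0.20 to 1.09), and the interval of Srsf12 alone reached past 2-fold. Srsf12 had the lowest counts, between 31 and 106 per library, whereas 32 members had at least 1000 counts in every library.

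**Figure D1:**
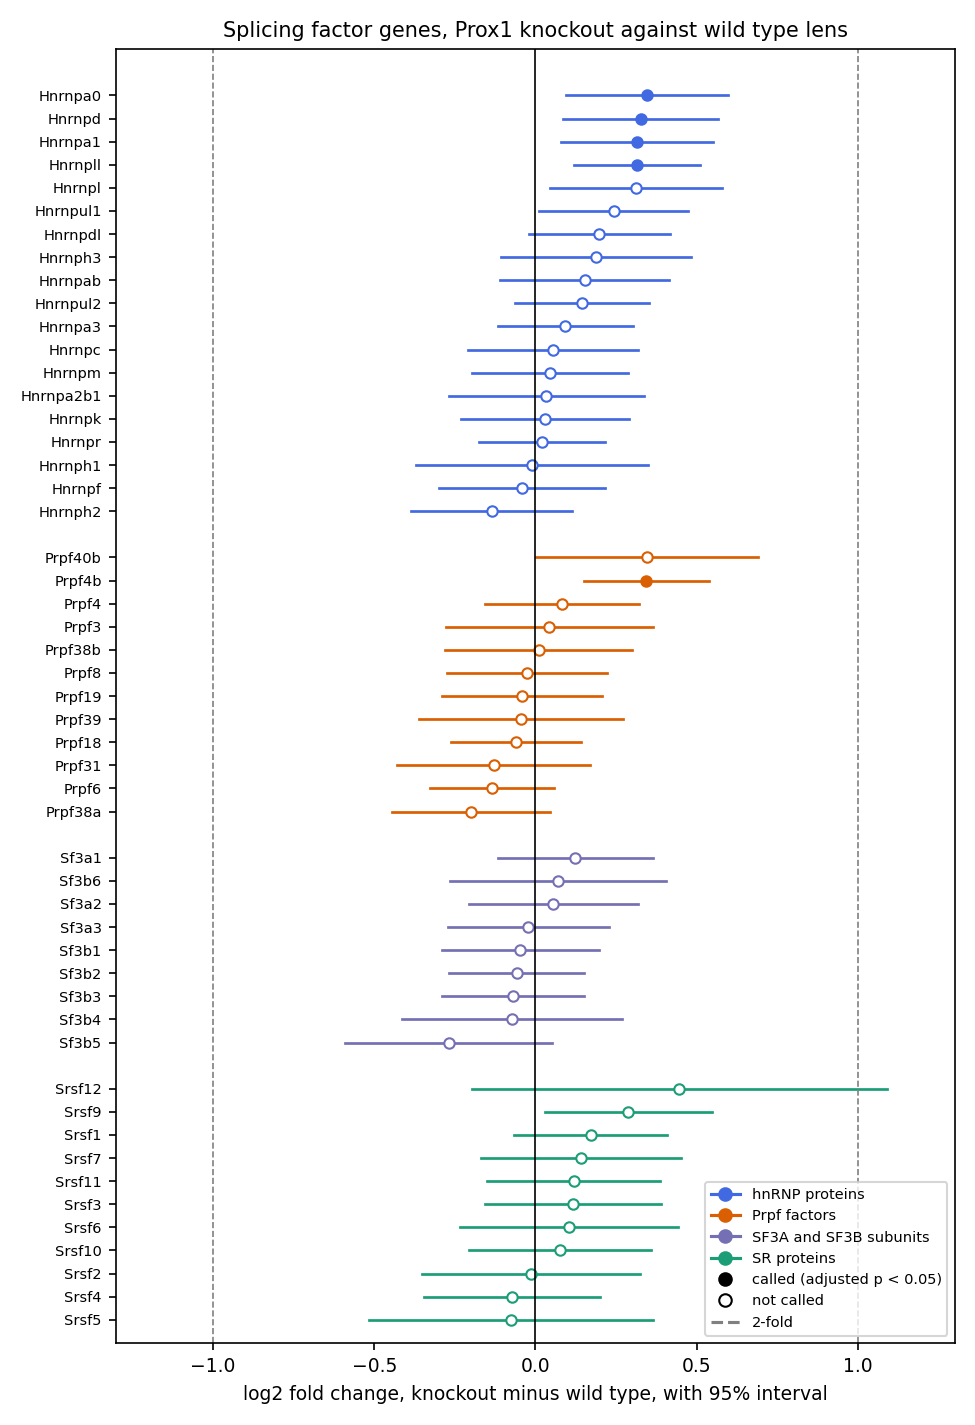
Log2 fold change of 51 of the 52 genes (points) with its 95% interval (lines), grouped by class, with the dashed lines at 2-fold. Filled points passed the edgeR threshold. The 5 filled points lie between 0.31 and 0.35, and only the interval of Srsf12 crosses a dashed line.

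No SR protein gene was called by edgeR, DESeq2 or limma-voom, and knockout library 1 was the highest knockout library for most of them. The 11 genes had a median log2 change of 0.12, and 1 had an unadjusted edgeR p below 0.05. Srsf6, with Srsf7 the most abundant of the class per transcript length, had 477, 495 and 552 CPM in wild type libraries 1, 2 and 3. In the knockout libraries it had 668, 482 and 487 CPM, so that knockout library 1 was above all others and libraries 2 and 3 lay within the wild type range. Its log2 change was 0.10 (SE 0.148, edgeR adjusted p 0.615). Srsf7 had 306, 303 and 277 CPM in the wild type and 391, 301 and 282 CPM in the knockout, with the same library standing out. Srsf5 had the largest change against the direction of the class, with a log2 change of -0.08. It varied most within the knockout among members with more than 1000 counts in every library, with 369, 214 and 319 CPM against 304, 285 and 362 CPM in the wild type.

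Srsf1, an SR protein that also acts at constitutive exons, was above every wild type library in every knockout library without passing the test. It had 766, 728 and 671 CPM in the knockout and 655, 650 and 618 CPM in the wild type (log2 0.17, edgeR adjusted p 0.234). The same held for Srsf9, with 108, 98.2 and 83.9 CPM against 83.5, 72.7 and 81.6 CPM (log2 0.29, edgeR adjusted p 0.0814). Srsf9 passed when knockout library 3 was left out (0.0312). The remaining SR genes, Srsf2, Srsf3, Srsf4, Srsf10, Srsf11 and Srsf12, had overlapping groups. Srsf2, a factor that acts on exon enhancers, was listed at only 14.1 to 18.6 CPM over the 6 libraries, and 25.3% of its exon bases are shared with Mettl23 and Mfsd11 on the opposite strand. These libraries keep no strand, so the level of Srsf2 is uncertain. The same limit holds for Srsf4, which shares 43% of its exon bases with Gm12992. It also holds for Hnrnpab (29.1% of exon bases shared with the opposite strand), Hnrnpf (26.5%), Prpf31 (18.1%) and Sf3a2 (16.1%).

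Knockout library 1 was the highest of the 3 knockout libraries for 10 of 11 SR genes and for 36 of all 52 members (69.2%), a count made after the values were seen. Over all features tested the share was 36.5%. The log2 ratio of library 1 to the mean of libraries 2 and 3 had a median of 0.34 in SR genes, 0.17 in SF3A and SF3B genes, 0.14 in hnRNP genes and 0.11 in Prpf genes, against 0.01 over all features. Some other splicing lists showed it as well, with 9 of 11 U1 and U2 proteins (median 0.26), 11 of 14 Sm and Lsm proteins (0.25) and 6 of 7 branch point genes (0.27) highest in library 1. Others showed it less, with 4 of 7 spliceosomal helicases (0.06) and 9 of 25 tissue-restricted regulators (-0.02). Of 21 SR kinases and SR-related cofactors, 9 were highest in library 1 and 12 in library 3 (0.07). The share over all 148 other splicing genes tested was 62.8%, and 68.3% without the tissue-restricted regulators. With library totals in place of TMM, library 1 was highest for 47 of 52 members (90.4%), with 10 of 11 SR, 8 of 9 SF3, 12 of 13 Prpf and 17 of 19 hnRNP genes, and for 55% of all features. Summed over the class, SR genes had 3411 CPM in knockout library 1, 2696 and 2719 CPM in libraries 2 and 3, and between 2669 and 2774 CPM in the wild type. Library 1 was also the deepest, with 28391662 counts against 10907877 and 9082219. Whether depth or another feature of that library bears on these levels was not tested. Without it the median log2 change of SR genes was -0.02 and that of all members -0.02, and 4 members were called. Of those, 3 were higher, Hnrnpl among them (adjusted p 0.0341), and Sf3b5 was lower (log2 -0.45, edgeR adjusted p 0.0216), beside 14.6% of all features higher and 16.3% lower.

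**Figure D2:**
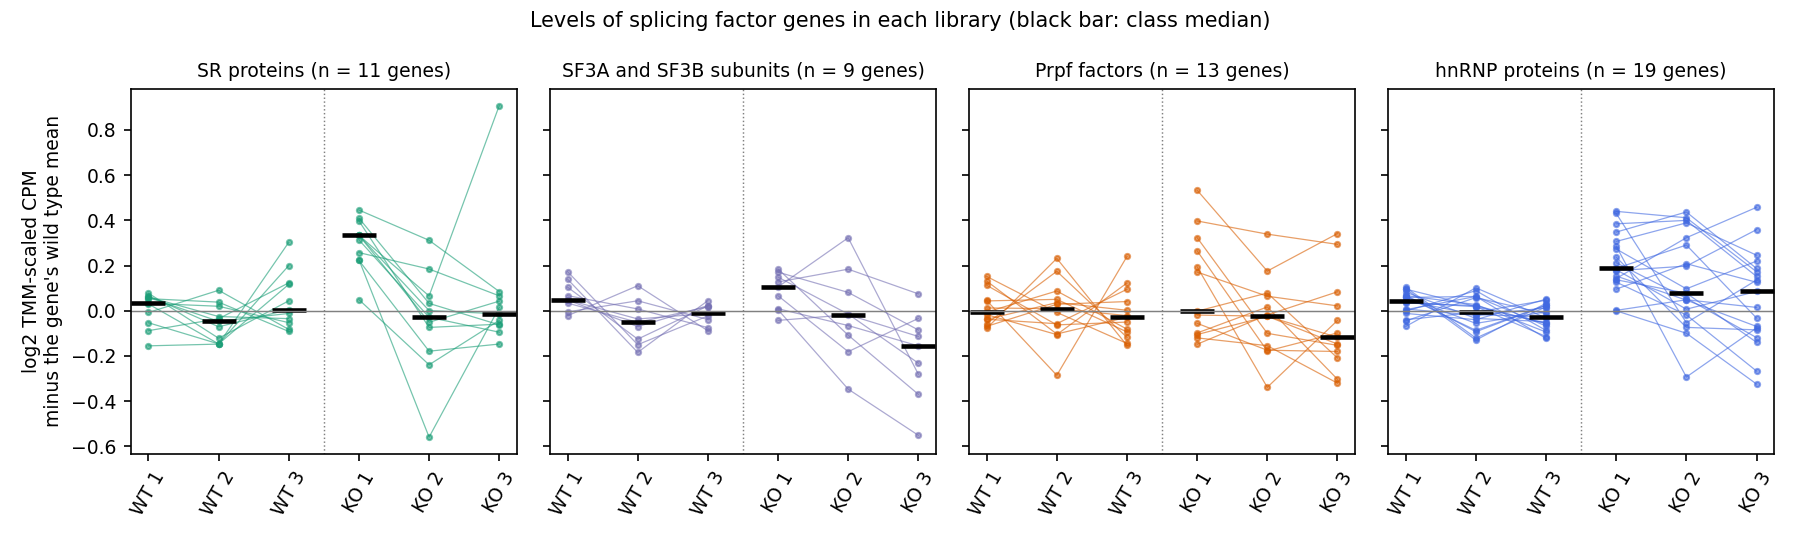
Log2 TMM-scaled CPM of each gene in each library, minus the gene's own mean over the wild type libraries, by class (thin lines join libraries of 1 genotype, black bars are class medians). SR genes are raised in knockout library 1, where their sum was 3411 CPM, and sit near the wild type level in knockout libraries 2 and 3.

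The SF3A and SF3B subunits, which bind at the branch point, were level between the genotypes. None of 9 was called, and none had an unadjusted edgeR p below 0.05. Their median log2 change was -0.05. Sf3b2, the most abundant subunit per length, had 390, 368 and 385 CPM in the wild type and 370, 376 and 352 CPM in the knockout. Sf3b3 had 343, 329 and 311 CPM in the wild type and 329, 313 and 294 CPM in the knockout. Both pairs of groups overlapped, with log2 changes of -0.06 (95% interval -0.27 to 0.15) and -0.07 (-0.29 to 0.15). Sf3b1, the scaffold subunit that clamps the branch point, had a log2 change of -0.05. Sf3a1 had the largest change in the other direction (log2 0.12, edgeR adjusted p 0.39), with 192, 153 and 167 CPM in the wild type and 186, 193 and 179 CPM in the knockout. Sf3b5 had 45.8, 35.9 and 31.2 CPM in the knockout and a narrow range in the wild type, 45.5, 47.1 and 44.4 CPM (log2 -0.27, edgeR adjusted p 0.167). Its knockout libraries 2 and 3 lay below the wild type and library 1 within it.

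Among the Prpf factors, only Prpf4b was called by edgeR, and it had the smallest adjusted p of all members. Prpf4b encodes a kinase that phosphorylates other splicing proteins (ENSMUSG00000021413, GRCm38 chromosome 13, 34875302 to 34906064, plus strand). It had 193, 193 and 189 CPM in the wild type and 252, 242 and 235 CPM in the knockout, so that all knockout libraries lay above all wild type libraries. It rose by 26.9% (log2 0.34, SE 0.085, edgeR adjusted p 0.017). Prpf40b, a partner of the U1 particle, had a change of the same size but a wider spread, with 38.5, 30.6 and 44.1 CPM in the wild type and 54, 42.2 and 47.3 CPM in the knockout. Its groups overlapped and it was not called (edgeR adjusted p 0.11). Prpf8, the large protein at the catalytic centre, had 516, 457 and 461 CPM in the wild type and 431, 472 and 506 CPM in the knockout (log2 -0.03, 95% interval -0.28 to 0.22). Prpf38a (log2 -0.20, edgeR adjusted p 0.181) and Prpf6 (-0.13, 0.242) were lower in every knockout library than in any wild type library without passing. Prpf3, Prpf4, Prpf18, Prpf19, Prpf31, Prpf38b and Prpf39 were not called and had overlapping groups, with log2 changes between -0.13 and 0.08.

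The hnRNP proteins held the other 4 called genes, which had increases of nearly equal size. Of 19 genes, 4 rose (21.1%) and 0 fell, beside 15.9% of all features that rose, so the share of risen genes was near the background. The median log2 change of the class was 0.14. At an unadjusted edgeR p below 0.05 there were 6 genes higher and 0 lower, beside 3279 higher and 3185 lower of the 14271 features tested. Hnrnpa0, an A/B type protein without introns in its gene (ENSMUSG00000007836, GRCm38 chromosome 13, 58125879 to 58128556, minus strand), had 447, 413 and 427 CPM in the wild type and 582, 570 and 483 CPM in the knockout. It rose by 27% (log2 0.35, SE 0.11, edgeR adjusted p 0.0427). Hnrnpd, which encodes AUF1, a protein that binds AU-rich mRNA (chromosome 5, 99955935 to 99978938, minus strand), had 344, 311 and 336 CPM in the wild type and 420, 446 and 376 CPM in the knockout. It rose by 25.4% (log2 0.33, SE 0.106, edgeR adjusted p 0.0447).

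Hnrnpa1, the A1 protein that opposes SR proteins at many exons (chromosome 15, 103240432 to 103246692, plus strand), had 77.9, 78.2 and 68.7 CPM in the wild type. It had 97.7, 98.7 and 83.1 CPM in the knockout and rose by 24.4% (log2 0.32, SE 0.103, edgeR adjusted p 0.0464). Of the distinct 51-base stretches of its annotated transcripts, the length of a read, 28.2% also occur in transcripts of 19 other genes, 18 of them pseudogenes, so its level is uncertain. Hnrnpll, a relative of hnRNP L known from exon choice in lymphocytes (chromosome 17, 80029487 to 80062334, minus strand), had 123, 122 and 115 CPM in the wild type and 148, 157 and 142 CPM in the knockout. It rose by 24.3% (log2 0.31, SE 0.085, edgeR adjusted p 0.0242). In each of the 4 genes the knockout libraries lay above all wild type libraries, as in 24.4% of all features tested. The genes were called on these same libraries, so this is no separate support for the calls.

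The calls depended on single libraries. All 5 stood without knockout library 3. Without knockout library 2, wild type library 2 or wild type library 3 no member was called by edgeR, beside 23.1%, 15.5% and 17.0% of all features in these fits. There the 5 genes had adjusted p between 0.0552 and 0.149, between 0.0855 and 0.202 and between 0.106 and 0.215. In these fits 3, 3 and 2 members had an unadjusted p below 0.05, for which the share of all features was not counted. Without knockout library 1 or wild type library 1, Hnrnpa0 (0.0867 and 0.0665), Hnrnpa1 (0.0965 and 0.0778) and Hnrnpd (0.0737 and 0.0713) were lost while Prpf4b and Hnrnpll stayed.

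**Figure D3:**
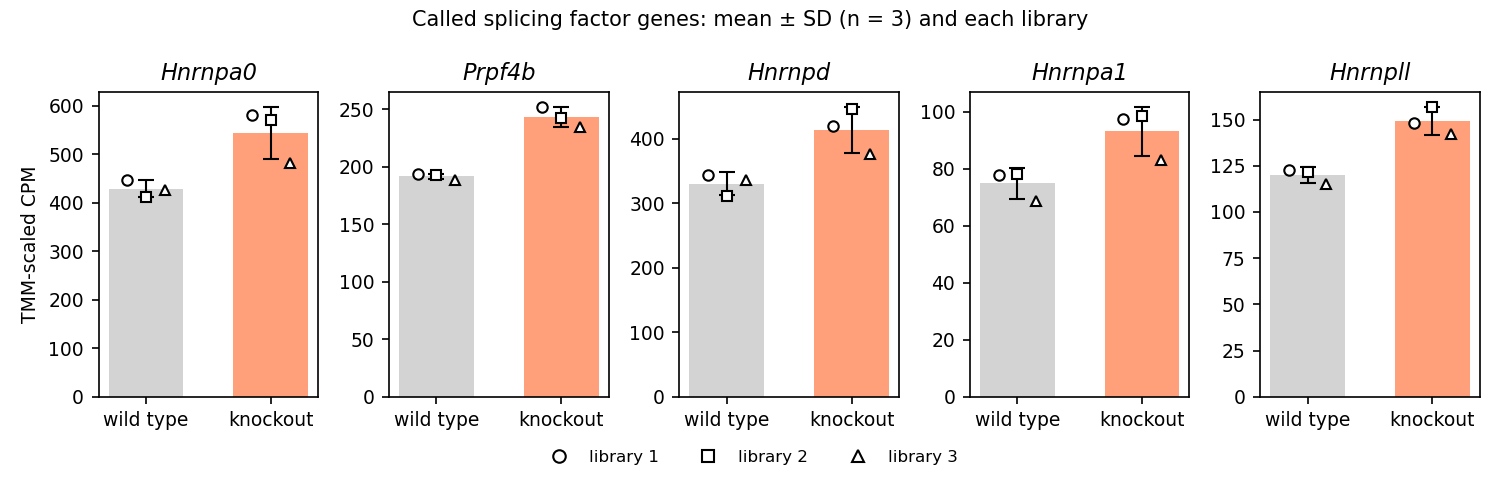
TMM-scaled CPM of the 5 called genes, as bars of the mean with SD (n = 3) and 1 symbol per library. The knockout libraries of each gene lie above its wild type libraries, as for Prpf4b with 235 to 252 against 189 to 193 CPM. The genes were called on these same libraries.

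Of the hnRNP genes not called, Hnrnpl, the relative of Hnrnpll, came nearest. It had 525, 469 and 509 CPM in the wild type and 552, 626 and 687 CPM in the knockout (log2 0.31, edgeR adjusted p 0.0703), and it passed with DESeq2 (0.042). Hnrnpdl, Hnrnpul1 and Hnrnpul2 also had groups that did not overlap and were not called, with log2 changes of 0.20, 0.24 and 0.14. Over all 52 members, all knockout libraries lay above all wild type libraries for 11 genes and below them for 2. Over all features these shares were 24.4% and 25.7%. Hnrnph2, an X-linked protein that binds runs of G, had the largest change against the class direction, with 182, 204 and 186 CPM in the wild type and 191, 178 and 152 CPM in the knockout (log2 -0.14, edgeR adjusted p 0.361). Hnrnpa2b1 was the most abundant member of all, with 1938, 1900 and 1945 CPM in the wild type and 2271, 1832 and 1818 CPM in the knockout. Its log2 change was 0.03 (95% interval -0.27 to 0.34). The others, Hnrnpa3, Hnrnpab, Hnrnpc, Hnrnpf, Hnrnph1, Hnrnph3, Hnrnpk, Hnrnpm and Hnrnpr, had log2 changes between -0.04 and 0.19. For Hnrnpf, 61.7% of the 51-base stretches are shared with other genes. Shares over 10% were found for 13 of the 52 members, Sf3b4 (45%) and Hnrnpa3 (27%) among them, so the levels of these genes are uncertain as well.

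Levels between genes can be compared only per length, for which the deposited RPKM values (reads per transcript length and library total) were used. Hnrnpa2b1 had 418 ± 41.6 RPKM in the wild type (SD, n = 3), followed by Hnrnpa0 with 142 ± 19 and Hnrnpc with 128 ± 14.1, and the spreads of Hnrnpa0 and Hnrnpc overlap. Srsf6 (118 ± 7.4) and Srsf7 (115 ± 15.6) led the SR genes and did not differ beyond their spread. Sf3b2 (105 ± 12.2) led the SF3 subunits, and Prpf8 the Prpf factors. Srsf12 was lowest, with 0.70 ± 0.106 RPKM. Mean RPKM was higher in the knockout for all 52 members, and the share over all features was not counted. RPKM is scaled to a library total that includes the crystallin counts. Scaled to library totals in edgeR, all features had a median log2 change of 0.39.

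**Figure D4:**
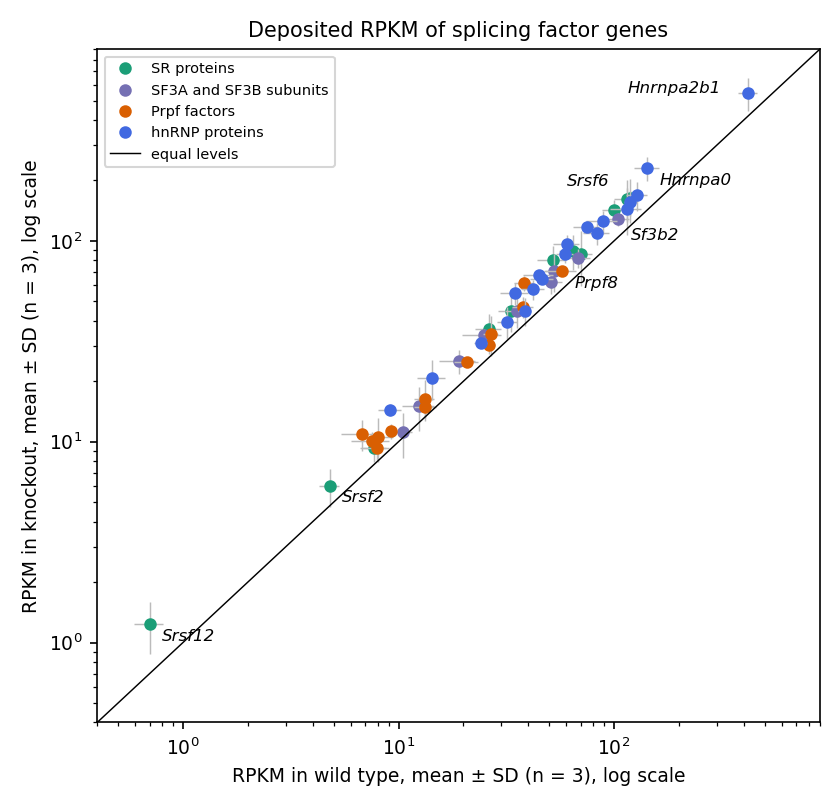
Deposited RPKM of the 52 genes in wild type (x axis) and knockout (y axis), mean ± SD with n = 3, both axes on a log scale. The points run parallel to the line of equal levels and above it, from Srsf12 to Hnrnpa2b1, in values scaled to library totals that include crystallin counts.

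The scaling between libraries decides how such a uniform offset is read. With library totals in place of TMM factors the median log2 change of all features moved from 0.04 to 0.39 and that of the members from 0.05 to 0.40, and 24 members were called higher and 0 lower, beside 38.0% and 6.62% of all features. Relative to the median of all features the members stood at 0.01 under both scalings. Class medians with library totals were 0.47 for SR, 0.30 for SF3, 0.31 for Prpf and 0.49 for hnRNP genes, so the SF3 and Prpf medians change sign with the scaling. As a share of counts outside the crystallins, the 52 genes took 1.97%, 1.61% and 1.57% in knockout libraries 1, 2 and 3, against 1.61%, 1.47% and 1.5% in those of the wild type. The share of a gene within its own class does not depend on scaling at all. Prpf4b took 17.4%, 17.6% and 17.4% of the summed RPKM of the Prpf factors in the knockout, against 13.9%, 14% and 14% in wild type libraries. Hnrnpa0 took 10.4%, 11.2% and 10.1% of the hnRNP sum in the knockout, against 9.22%, 8.79% and 9.09% in the wild type, again with no overlap. Both genes were called on these same libraries, so their higher shares are no separate support for the calls. Over all members, groups without overlap in these shares were not counted. Hnrnpa2b1 took 26.7%, 23.7% and 24.8% in the knockout, against 26.2%, 26.5% and 27.1% in wild type libraries, with overlapping groups.

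The rest of the splicing machinery was followed through 11 lists with 152 genes, of which 148 were tested. By edgeR 13 rose and 13 fell, 8.78% each way beside 15.9% and 16.8% of all features. Of these 26 calls, 9 held whichever library was left out. The scaling touched the 2 directions unequally: with library totals in place of TMM all 13 higher genes were still called higher, while 9 of the 13 lower genes were no longer called and 4 were. Over the 148 genes, 56 were then higher and 4 lower. No gene was called in the lists of U5 and tri-snRNP proteins, the Prpf19 complex and catalytic step proteins, spliceosomal helicases and the exon junction complex, which held 42 tested genes together. Among 11 U1 and U2 proteins, only Puf60 fell (log2 -0.36, edgeR adjusted p 0.047). It was no longer called when knockout library 2 (0.0873), knockout library 3 (0.108), wild type library 2 (0.14) or wild type library 3 (0.112) was left out. Nor was it called with upper quartile factors (0.0659), library totals (0.993) or the replicate number as a block (0.059). Among 14 Sm and Lsm ring proteins, Snrpn, the imprinted tissue-restricted copy of the Sm protein B, fell 2.34-fold. It had 50, 54.5 and 51.2 CPM in the knockout and 103, 131 and 131 CPM in the wild type (log2 -1.23, SE 0.116, edgeR adjusted p 0.000234). Lsm4 fell by 0.58 on the log2 scale, which was lost without wild type library 2 (adjusted p 0.0553) and with library totals (log2 -0.22, adjusted p 0.257).

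Of 7 genes for recognition of the branch point and the 3' splice site, U2af1l4 (log2 -0.67) and U2af1 (-0.40) fell. Neither was called when library 2 or 3 of either genotype was left out, with edgeR adjusted p between 0.0514 and 0.104. With library totals U2af1l4 was at -0.30 (adjusted p 0.203) and U2af1 at -0.04 (0.851), and with upper quartile factors U2af1 was not called (0.0566). In the list of SR kinases and SR-related cofactors, 1 of 21 genes rose and 2 fell. Tnpo3, the import receptor that carries SR proteins into the nucleus, fell from 159, 170 and 157 CPM in the wild type to 120, 121 and 125 CPM in the knockout (log2 -0.41, edgeR adjusted p 0.00772). With library totals it was at -0.06 (adjusted p 0.716), so its fall depends on the scaling. Srpk3, an SR protein kinase known from muscle, was low throughout, with 1.55, 1.72 and 2.48 CPM in the wild type and 0.412, 0.167 and 0.605 CPM in the knockout (log2 -2.27, edgeR adjusted p 0.0051). In knockout library 2 it lay below the 0.275 CPM that a count of 0 allows there. Srrm1 rose by 0.35, a call lost when any library other than knockout library 1 was left out (0.069 to 0.21). Of 8 tested proteins of the minor spliceosome 2 rose and 2 fell, 25% each way beside 15.9% and 16.8% of all features. Among them were Snrnp35 (log2 -0.64), Zcrb1 (-0.45) and Pdcd7 (0.41). Without wild type library 2 or 3 none of these 3 was called (edgeR adjusted p 0.0606 to 0.0839). Without knockout library 2 Pdcd7 (0.0501) and Zcrb1 (0.0694) were not called either, nor was Zcrb1 without knockout library 3 (0.054). With library totals Snrnp35 was at -0.28 (adjusted p 0.218) and Zcrb1 at -0.08 (0.651), neither of them called. Of 20 other hnRNP-like proteins, Cirbp, a cold-inducible protein, rose by 0.50 (edgeR adjusted p 0.00695) and Khsrp by 0.39. Khsrp was not called with knockout library 2 (0.0723), knockout library 3 (0.0522), wild type library 2 (0.125) or wild type library 3 (0.102) left out.

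The list of regulators taken as tissue-restricted held 12 of the 26 calls. How far each gene of the list is restricted to certain tissues was not tested. Of 25 tested, 8 rose (32%) and 4 fell (16%), beside 15.9% and 16.8% of all features. Esrp2, a splicing regulator of epithelia, had 1.79, 0.918 and 4.44 CPM in the knockout and 0.869, 0.172 and 0.345 CPM in the wild type (log2 2.26, SE 0.681, edgeR adjusted p 0.0349). Its values in wild type libraries 2 and 3 are low, so the size of its change is uncertain. A count of 0 allows 0.145 and 0.144 CPM there before TMM scaling. The TMM factors of these libraries, 0.843 and 0.835, raise both limits on the scale of the values given. The highest library of Esrp2, knockout library 3, was also the highest for surface ectoderm (94.8 CPM), pigment cell (690 CPM) and periocular mesenchyme markers (2427 CPM). The part of such cells in the level of Esrp2 was not tested, and Esrp2 was not called with knockout library 3 (0.0862), wild type library 2 (0.122) or wild type library 3 (0.111) left out. Rbm20, known from the splicing of titin in the heart, rose from 4.78, 3.61 and 5.30 CPM to 11.8, 10.8 and 16.6 CPM (log2 1.51, edgeR adjusted p 0.00196). Rbfox3, known from neurons, fell from 2.37, 3.61 and 3.11 CPM to 0.97, 0.918 and 1.61 CPM (log2 -1.42, edgeR adjusted p 0.0108), and its call was lost without wild type library 2 (0.0526). Rbm24, an RNA-binding protein of lens and muscle named here after its values were seen, fell from 386, 513 and 495 CPM to 244, 256 and 209 CPM (log2 -0.98, edgeR adjusted p 0.0015). Rbm20 and Rbm24 were called whichever library was left out.

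**Figure D5:**
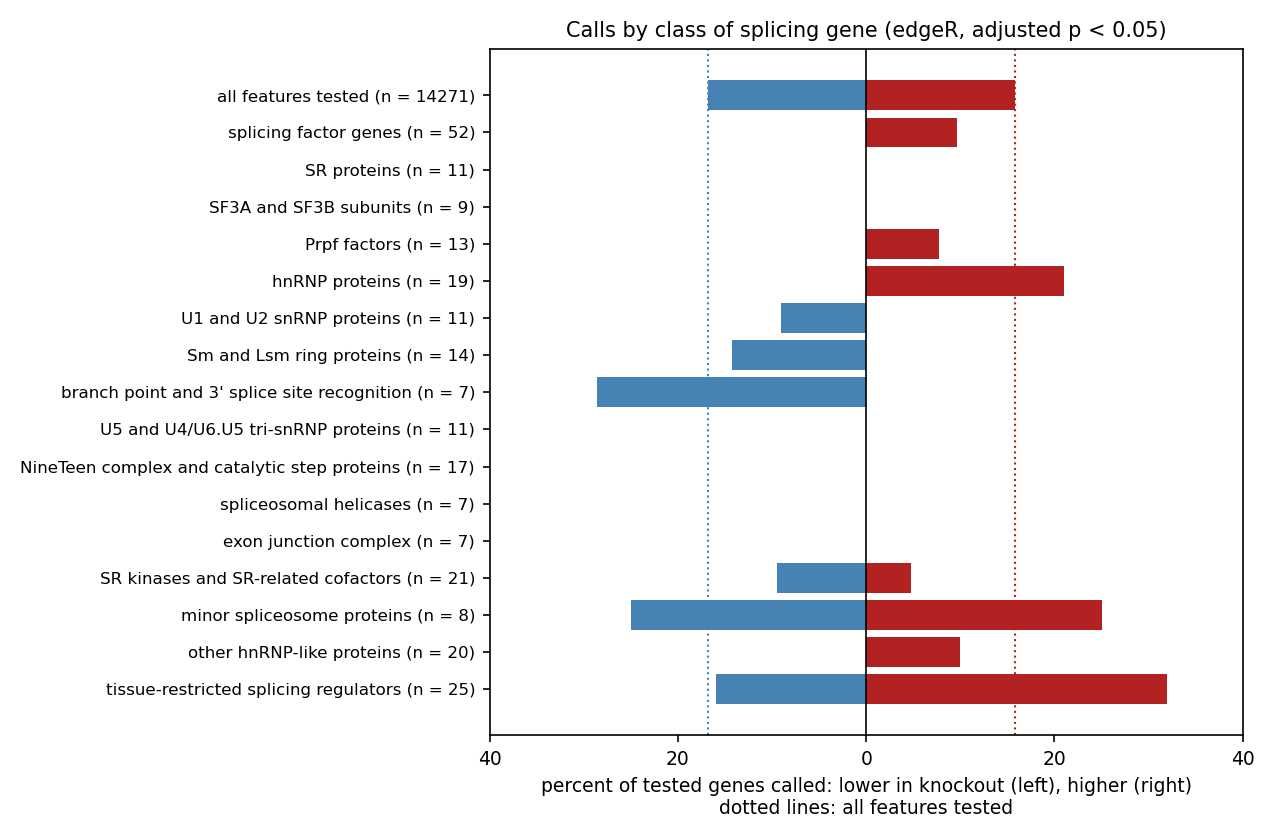
Percent of tested genes called lower (left, blue) or higher (right, red) in the knockout, for all features, all 52 splicing factor genes, their 4 classes and the 11 other lists, with dotted lines at 15.9% higher and 16.8% lower for all features. SR genes and SF3 subunits have no call, and the tissue-restricted regulators have calls in both directions.

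Bases upstream of the start sites of called members are shown (RefSeq, GRCm38.p6). Each stretch holds 120 bases that end just before the start, 5′ to 3′ on the strand of the gene. Capitals mark a CCAAT box (CCAAT or ATTGG) or a GC box (GGGCGG or CCGCCC). Hnrnpll is not in the promoter table, and the stretch of Prpf4b is not printed because an annotated exon reaches into it.
Hnrnpa0 (chr13:58128557-58128676, minus strand): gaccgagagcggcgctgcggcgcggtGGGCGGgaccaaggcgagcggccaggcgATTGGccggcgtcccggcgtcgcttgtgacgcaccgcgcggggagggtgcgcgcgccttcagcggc
Hnrnpd (chr5:99978939-99979058, minus strand): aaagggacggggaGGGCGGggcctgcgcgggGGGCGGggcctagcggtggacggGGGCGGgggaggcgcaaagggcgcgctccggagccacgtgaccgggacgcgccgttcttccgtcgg
Hnrnpa1 (chr15:103240277-103240396, plus strand): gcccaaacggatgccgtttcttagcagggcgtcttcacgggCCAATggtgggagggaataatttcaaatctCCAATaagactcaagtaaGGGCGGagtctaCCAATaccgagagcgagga
All 3 stretches hold a GC box, and those of Hnrnpa0 and Hnrnpa1 hold a CCAAT box as well. In windows from 250 bases before to 50 after a start site, a GC box was found for 33 of the 46 members with a window, 13 of 17 hnRNP genes among them, and in 35.7% of all 32851 windows. These are matches of letters and say nothing about binding.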

How the data were processed

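RNA was extracted from pools of 30 lenses and poly-A selected libraries without strand were read as single-end 51 bp, per the labels. The deposited files hold, for each feature, the count, CPM and RPKM. Per the file headers and values, the deposited CPM is the count scaled to the library total, and RPKM is that CPM per length. Build GRCm38 and the tool edgeR appear, without their role, in the submitters' processing notes. For the aligner and the counter, the names were not given in the sources used here. For 26 features, count and CPM belonged to different features, and these were left out (0.0424% to 0.0636% of counts). Counts were tested in R 4.3.3 with edgeR 4.0.16 (filterByExpr with a minimum count of 10, TMM, quasi-likelihood test, group as the only term). P-values were adjusted by Benjamini-Hochberg over 14271 features, and the SE is the log2 change divided by the square root of F. The p-values reflect only how far these pools differ from each other. A count of 0 allows 3 counts, 0.106 to 0.33 CPM before TMM scaling. Alternatives were DESeq2 1.42.0, limma-voom 3.58.1, other scalings and filters, a replicate block and leaving out each library; the fit was tested on simulated data. Exon overlaps, coordinates and shared 51-base stretches came from GENCODE annotation and transcripts of the same build, which matched all 52 members; overlaps were not computed for other genes.

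Members and lists were chosen with earlier results of these data known. The values of 1 Prpf factor are not reported here, though it is included in the counts and medians. Genes with values in every library are up to 8 called members, the 2 of highest RPKM and the one with the largest opposite change in each class, and up to 3 called genes in each other list; further genes are named with their values. In all 11 marker lists were summed. Those not given in full in the report were periocular mesenchyme (143 to 373 CPM in the wild type, 2 of 5 tested markers higher in the knockout), neurons (76.6 to 126 CPM over the 6 libraries), erythroid cells (583 to 2155), vessel endothelium (205 to 440), macrophages (22.3 to 62.5), lens epithelium (2244 to 2848) and lens fibre (18740 to 172295). Of 5 lens epithelium markers 3 were higher and 2 lower in the knockout. Of 6 erythroid markers 2 were higher, of 6 neuron markers 1 was lower, and no vessel endothelium or macrophage marker was called.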

Additional observations from a re-analysis of the deposited data

How the results depend on the processing

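The count of 5 called members was 24 with library totals in place of TMM and 1 (Prpf4b) with no filter on low counts, and lay between 0 and 6 when 1 library was left out. It stayed between 4 and 6 with DESeq2, limma-voom, upper quartile factors, crystallins taken out before TMM, a filter of 1 CPM or the replicate block. The 26 calls among other splicing genes became 60 with library totals, where calls over all features went from 4659 to 6368. They lay between 9 and 30 without 1 library, the lowest without wild type library 2, where 2267 of all features were called. The median log2 change of the members was 0.40 with library totals and 0.10 with upper quartile factors. Without 1 library it lay between -0.0225, which reversed its sign (knockout library 1), and 0.11. Deviations of same-numbered libraries correlated at -0.0276, 0.254 and 0.111, and those of differently numbered libraries at -0.224 to 0.0878. These values do not settle whether the replicate number pairs the libraries, so the block was used as an alternative only. With the replicate number as a block 4 members were called, Hnrnpd being lost (adjusted p 0.0647), and 4176 of all features in place of 4659. Over 45 genes named with values, Prox1 included, 540 repeated results kept their side of the threshold, 74 lost it and 16 gained it. The cause was not tested. Depth limits Srsf12 most.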

Other observations

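Other promoter motifs were searched on both strands in the 300-base RefSeq windows of the 46 members that have one, with each motif counted on its own where matches overlap. The ETS core CCGGAAG (or CTTCCGG) was found for 6 of 7 SF3A and SF3B genes and 4 of 11 SR genes. It was also found for 4 of 11 Prpf genes and 2 of 17 hnRNP genes. Counted by window, it was in 33.9% of the 62 member windows and 8.86% of all windows. A CCAAT box was found for 13 of 17 hnRNP genes, 4 of 11 SR genes, 6 of 11 Prpf genes and 2 of 7 SF3 genes. By window it was in 51.6% of member windows and 37.4% of all windows. The NRF1 motif was found for 11 of the 46 members, in 21.0% of member windows and 4.6% of all windows. TATAAA was found for 5 members, in 8.06% of member windows and 13.6% of all windows. TGACGTCA was found for 0 members, beside 1.79% of all windows. The median GC content was 61% in the windows of the members and 52.7% in all windows, and the part of base composition in the motif shares was not tested.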
